A study of Mus musculus with 16 samples.

Results

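The AI lines are induced pluripotent stem cell (iPSC) lines, and 7 of them were compared here, the 4 that the study newly derived (AI3, AI7, AI10 and AI9) and the 3 that had been identified previously (GS4, GS9 and GS32), out of 16 lines in all. The lines were chosen by their titles, and no measured value entered the choice. The other 9 lines, named AN, were embryonic stem cell lines made by nuclear transfer and serve here only as a reference. AI and AN lines were all of the 129-M2rtTA strain and came from adipocyte progenitor cells (APCs) of mice grown entirely from 1 earlier iPSC line, so that they carried the same transgene insertions. AI lines were obtained by adding doxycycline, which turns on the reprogramming factors in such cells. The study graded each line by tetraploid complementation, in which the injected cells must build the whole embryo, as fully pluripotent (F) or partially reprogrammed (P). The new lines hold 3 F lines (AI3, AI7 and AI10) and 1 P line (AI9), and the previous lines 1 F line (GS32) and 2 P lines (GS4 and GS9). All 4 new lines were at passage 7, GS4 was at passage 17, GS9 at 6 and GS32 at 13, and the AN lines were at 5 to 7. Each line gave 1 RNA library, so a line is the replicate and p-values measure the spread between lines. The titles of GS9 and GS32 disagree with their source labels, both of which read GS4, and the lines were taken by title. Derivation, passage and F or P state cannot be told apart fully in 7 lines.

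An iPSC line is grown from a single reprogrammed colony, and lines from the same donor cells can differ in imprinted genes, germline genes silenced by DNA methylation, and signs of the culture they grew in. Mouse pluripotent cells in serum and LIF hold a network around Oct4 (Pou5f1), Sox2 and Nanog, while FGF, Wnt, Nodal and BMP signals push some cells towards lineage genes. They are commonly grown on feeder fibroblasts, whose RNA can enter a library. Cultured pluripotent cells can also gain whole chromosomes with time in culture.

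Values were FPKM, the reads of a gene scaled by transcript length and library, and were compared as log2(FPKM + 1), a scale that understates the change of genes near or under 1 FPKM. Of 22552 genes in the table, 11774 reached a mean of 1 FPKM over these lines and were tested. Read numbers are unknown, but the spacing of low values puts the depth of the 7 libraries at 0.971 to 1.27 times that of AI3. All FPKM values of a line summed to 661973 to 963434, with GS9 highest, and small RNA genes, which were not tested, held 15.8% to 23.3% of that sum.

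Every AI line expressed the pluripotent stem cell markers, and none of the 8 was under 1 FPKM in any line. Summed over these markers, the new lines held 2353 to 3177 FPKM, GS32 held 2742, GS9 held 4261 and GS4 held 4725. Summed over 8 fibroblast or feeder markers, AI3 held 963, AI7 579, AI9 1051 and AI10 1118 FPKM. Among the previous lines, GS32 held 1286, the highest of the 7, while GS4 held 294 and GS9 238, the lowest. Col1a1, a chain of type I collagen, was 230, 99.7, 202 and 213 FPKM in AI3, AI7, AI9 and AI10, 231 in GS32, 65.3 in GS4 and 27.4 in GS9. GS4 and GS9 were thus above every new line for the pluripotency sum and below every new line for the fibroblast sum, whereas GS32 was within the range of the new lines for the former and above it for the latter. The sums weigh the most abundant markers most, and not every marker followed them. Sall4 was 23.4 FPKM in GS9 against 32 to 40.4 in the new lines. Nanog in GS4 (95.4) and Esrrb in GS9 (36.7) lay within the new range (47.7 to 116 and 30.8 to 43.3). Lum in GS4 (2.79) was above every new line (0.819 to 2.66). In bulk RNA, fewer cells of a type and less RNA per cell cannot be told apart. Of 6 extraembryonic endoderm markers, 3 to 5 were under 1 FPKM in each line. Of 5 markers of adipocytes or their progenitors, Pparg and Adipoq, defining genes of fat cells, were under 1 FPKM in all 7 lines. The others were not. Fabp4 was 1.8 to 2.47 FPKM in the new and 2.04 to 3.66 in the previous lines. Cd34 was 1.77 to 4.6 and 2.58 to 3.74, and Ly6a 9.15 to 21.6 and 7.84 to 22.

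**Figure D1:**
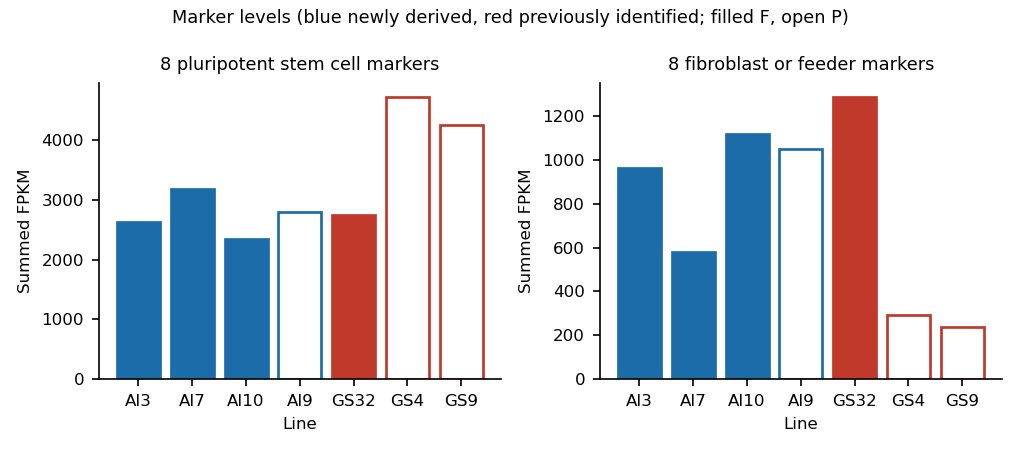
Summed FPKM (y axis) of 8 pluripotent stem cell markers (left) and 8 fibroblast or feeder markers (right) in each AI line (x axis), blue for newly derived and red for previously identified lines, filled for F and open for P. GS4 and GS9 have the highest pluripotency sums (4725 and 4261) and the lowest fibroblast sums (294 and 238), and GS32 has the highest fibroblast sum (1286).

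The question of the comparison was whether lines derived for the study differed from those carried over from earlier work. In limma's moderated test with Benjamini-Hochberg adjustment, 0 genes (0%) differed in either direction between the 4 new and 3 previous lines at a threshold of 0.05, and the smallest adjusted p was 0.544. Before adjustment, 350 genes (2.97%) were higher and 578 (4.91%) lower in the new lines with p under 0.05. All 4 new lines lay above all 3 previous lines for 358 genes (3.04%) and below them for 526 (4.47%). With 35 ways to divide 7 lines into 4 and 3, the smallest exact two-sided permutation p is 0.0571, so a single gene could not pass 0.05 by that test. The genes named below are therefore described by their values, and none of their differences passed the adjusted test with all 7 lines.

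The previous lines did not form a group. The median absolute difference of log2(FPKM + 1) was 0.138 to 0.217 between pairs of new lines, and it was 0.138 to 0.180 between GS32 and the new lines. It was 0.187 to 0.346 between GS4 and the new lines and 0.257 to 0.385 between GS9 and the new lines. The 3 previous lines differed from each other by 0.285 to 0.332, more than any pair of new lines did. Pairs of AN lines spanned 0.091 to 0.362, a range that held the distances among the previous lines. On the first principal component, which held 50.5% of the variance, the scores were -26.4 for AI10, -18.4 for GS32, -15.8 for AI3, -10.9 for AI9, 5.0 for AI7, 30.0 for GS4 and 36.5 for GS9. GS32 stood among the new lines there, and the P line AI9 stood among the F lines AI3, AI10 and AI7. The second component (23.5%) parted GS4 at 27.6 from GS9 at -25.0.

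**Figure D2:**
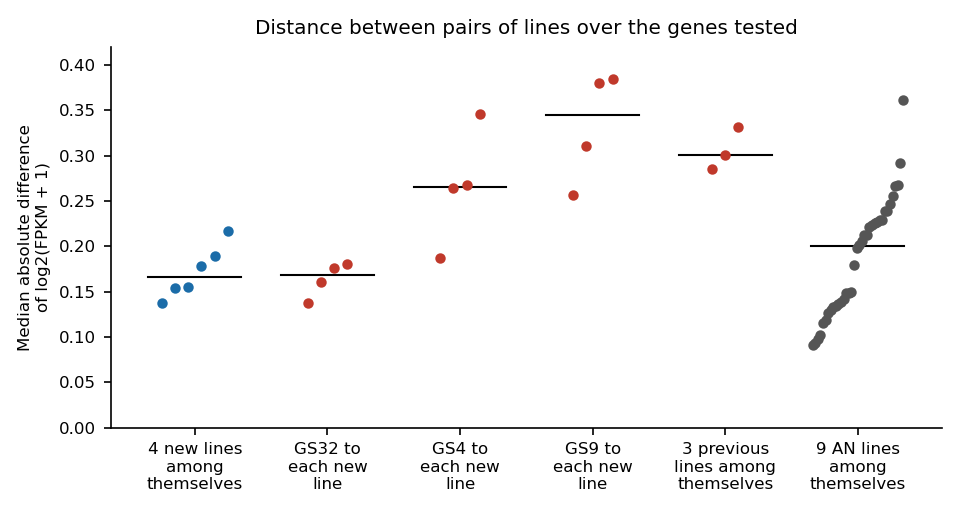
Median absolute difference of log2(FPKM + 1) over the 11774 genes tested (y axis) for each pair of lines (points), grouped by kind of pair (x axis), with the median of each kind as a bar. Pairs of GS32 with new lines (0.138 to 0.180) overlap pairs of new lines (0.138 to 0.217), whereas pairs among the previous lines lie at 0.285 to 0.332. Pairs of AN lines span 0.091 to 0.362.

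The derivations were then compared within each state, F by the mean of AI3, AI7 and AI10 against GS32, and P by AI9 against the mean of GS4 and GS9. Among F lines the median absolute difference was 0.133 and 27 genes differed by more than 1 on the log2 scale. Among P lines it was 0.264, and 411 genes differed by more than 1. These 2 contrasts share no line, and a gene had the same sign in both for 5577 of 11774 genes (47.4%). Across genes, which are not independent replicates, their Pearson correlation was -0.16, a description over means of 1 to 3 libraries. With state as a term in the fit, 103 genes were higher and 131 lower before adjustment, and the smallest adjusted p was 0.99. The interaction of derivation and state, added after the data had been seen, had p under 0.05 in limma's test for 741 genes before adjustment and for 0 genes after it.

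GS32 decided how many genes were called. Without it the previous lines are the 2 P lines GS4 and GS9, and limma called 26 genes higher and 11 lower in the new lines with adjusted p under 0.05. For 17 of these 37 genes, GS32 itself lay within the range of the new lines. Grb10, an imprinted gene for an adaptor that dampens insulin and growth factor signalling, had the smallest adjusted p without GS32 (0.00629). Its FPKM was 54.9, 36.9, 53 and 44.9 in AI3, AI7, AI9 and AI10, 8.28 in GS4, 6.60 in GS9 and 45.6 in GS32. It was thus low only in GS4 and GS9 among these lines, and the AN lines spanned 8.89 to 46.1. Of the 26 genes higher without GS32, 4 are on the list of fibroblast and feeder genes, which holds 42 of the 11774 genes tested. Vim, the intermediate filament protein vimentin, was 432 to 631 FPKM in the new lines, 575 in GS32, 204 in GS4 and 179 in GS9. Actg2, a smooth muscle actin, was 79.2 to 153 in the new lines, 162 in GS32, 30.8 in GS4 and 30.4 in GS9, and Igf2, an imprinted fetal growth factor, was 76.7 to 136, 194, 31.6 and 42.4 in the same order. GS4 and GS9 also had the lowest fibroblast marker sums, as given above, and the part of these in the result was not tested. Tdgf1, the Nodal co-receptor Cripto, went the other way, with 506 to 555 FPKM in the new lines, 509 in GS32, 1001 in GS4 and 1134 in GS9.

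The AN lines gave a scale for these differences. Of the 358 genes with all new lines above all previous ones, 27 had all 3 previous lines outside the range of the AN lines, 10 had all 4 new lines outside it, and 321 had neither. Of the 526 genes with all new lines below, these numbers were 44, 20 and 462. The AN median was nearer the mean of the new lines for 66.8% of the former genes and 68.4% of the latter. The same shares over all genes tested were not taken, and 3 lines can all fall outside a range more readily than 4. These counts therefore do not show which derivation departs from the AN lines. Nrtn, the ligand neurturin of the GDNF family, is 1 of the genes with the previous lines outside, at 4.54, 5.30, 5.16 and 5.77 FPKM in AI3, AI7, AI9 and AI10 against 3.37, 2.96 and 2.52 in GS4, GS9 and GS32, with AN lines at 4.32 to 6.55. All 3 previous lines were below every AN line for Nrtn, while the 4 new lines were within the AN range.

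Chromosome 8 stood apart in GS4. Each gene's log2(FPKM + 1) was taken relative to its median over the 16 lines, and the median over the 630 tested genes of chromosome 8 was 0.397 in GS4. On every other chromosome tested GS4 lay between -0.037 and 0.030, and on chromosome 8 the new lines lay between -0.048 and 0.010, GS9 at -0.021 and GS32 at -0.039. As a ratio, the median chromosome 8 gene of GS4 was 1.38 times the median of the other 15 lines, against 1.01 for its other genes. The shift was found along the whole chromosome, with medians of 0.34, 0.37, 0.42, 0.47 and 0.35 in 5 successive stretches. Of the chromosome 8 genes, 326 (51.7%) were highest in GS4 of all 16 lines, while on the other chromosomes this held for 7.42% to 16.3%. Of the 526 genes with all new lines below all previous lines, 49 lay on chromosome 8 (7.78% of its genes, against 4.28% of the others). GS9 and GS32 were not shifted, and the mean of this chromosome median was -0.021 in the new and 0.112 in the previous lines, a difference of -0.133 that did not pass the exact two-sided permutation test (p = 0.571, adjusted over 20 chromosomes 0.698). DNA copy number was not analysed here. Among the AN lines AN7 also stood apart, at 0.172. In GS9 the highest medians were 0.155 for the X chromosome and 0.110 for chromosome 13, within a line whose short genes were high as described next.

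**Figure D3:**
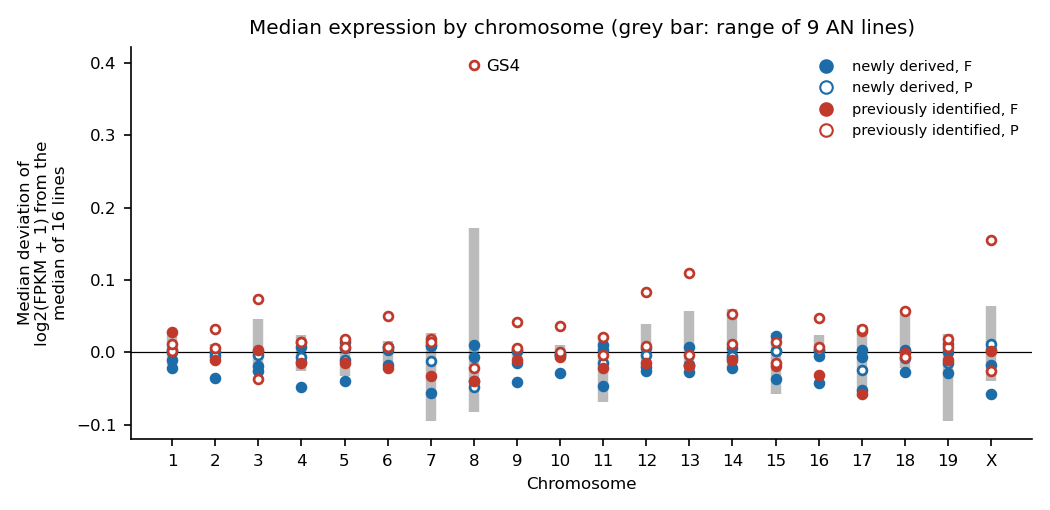
Median deviation of log2(FPKM + 1) from the gene's median over 16 lines (y axis) for each chromosome (x axis), one point per AI line, blue for newly derived and red for previously identified lines, filled for F and open for P, with the range of the 9 AN lines as a grey bar. GS4 is at 0.397 on chromosome 8, where the new lines lie between -0.048 and 0.010.

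Differences also followed transcript length. Genes were divided by length into 5 classes of nearly equal size. In the class of the shortest transcripts the median log2 difference, new minus previous, was -0.14, and in that of the longest it was 0.08. Among F lines these medians were 0.04 and -0.01, and among P lines -0.26 and 0.12. Among single lines GS9 had the widest range, from 0.28 in the shortest class to -0.14 in the longest, and AI3 went from -0.06 to 0.11. GS4 went only from 0.05 to -0.02 and GS32 from -0.08 to 0.04. By GC content the median difference went from -0.12 in the lowest of 5 classes to 0.08 in the highest. Among F lines it went from -0.07 to 0.08 and among P lines from -0.14 to 0.05. With each line's trend over length and GC removed, a step added after the data had been seen, 292 genes were higher and 431 lower before adjustment. The length trend was not tested as a cause, and medians with it removed are given for several lists below.

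Genes higher in all new lines included receptors, a signalling adaptor and transcription regulators. Eif2s3y, the Y-linked gene for a subunit of translation factor eIF2 (mm9 chromosome Y, 346986 to 365290), had the smallest p. Its FPKM was 36.2 in AI3, 36.4 in AI7, 29.9 in AI9 and 37.3 in AI10, against 22.9 in GS4, 21.7 in GS9 and 19.9 in GS32. All 4 new lines were above all 3 previous lines, a log2 difference of 0.67 (SE 0.12, unadjusted p = 0.000433, adjusted p = 0.544 by limma), with 0.85 among F and 0.41 among P lines. The positive signs within F and within P follow from that separation. The AN lines spanned 19.8 to 48.2, so both derivations lay within their range. The other Y-linked genes tested did not separate the derivations, with Ddx3y at 5.76 to 7.53 in the new lines and 2.52 to 6.75 in the previous lines, and Uty at 2.15 to 2.54 and 1.59 to 3.17.

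Col2a1, a chain of type II collagen of cartilage, had the largest difference among genes with all new lines above, apart from the ribosomal pseudogene Rplp2-ps1. It was 4.71, 5.51, 5.14 and 7.73 FPKM in AI3, AI7, AI9 and AI10 against 1.37, 2.71 and 2.65 in GS4, GS9 and GS32 (log2 difference 1.07, SE 0.21). Unlike the collagen I genes, Col2a1 was low in GS32 as in GS4 and GS9. Irs2, the insulin receptor substrate adaptor (mm9 chromosome 8, 10986980 to 11008458), was 7.21, 6.88, 8.85 and 11.8 against 2.98, 4.29 and 5.15 (difference 0.91, SE 0.21). It was lowest in GS4 although it lies on the chromosome that was high there. Notch3, a Notch receptor, was 16.9, 18.5, 20.8 and 23.3 in the new lines against 9.74, 12.7 and 14.4 (difference 0.66, SE 0.16). With the trend over length and GC removed the Notch3 difference was 0.34. Acvr2b, a receptor for activin and Nodal, was 9.58, 8.16, 8.91 and 8.75 against 6.38, 4.69 and 6.17 (difference 0.55, SE 0.14). Col2a1, Irs2, Notch3 and Acvr2b were taken only from genes with all new lines above. Their separate groups and positive differences within F and within P were therefore fixed by the choice.

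Cand2, a cullin-associated protein, was almost constant in the previous lines, at 4.23, 4.24 and 4.2 FPKM, and was 6.19, 5.79, 6.51 and 7.19 in AI3, AI7, AI9 and AI10. Its difference of 0.50 (SE 0.12) was 0.50 among F and 0.52 among P lines, and 0.30 with the trend over length and GC removed. Cand2 too was taken only from genes with all new lines above, which fixed its positive signs within F and within P. Ctbp1, a transcriptional corepressor, was 47.7 to 53 in the new lines and 31.3 to 39.6 in the previous ones. Of the remaining genes of this kind, Pcbp4, an RNA-binding protein, Vav2, a guanine nucleotide exchange factor, Plxnb1, a semaphorin receptor, Ptpn13, a tyrosine phosphatase, and Lgals3, a galectin, differed by 0.48 to 0.60. With the trend over length and GC removed they differed by 0.19 (Plxnb1) to 0.65 (Lgals3). Sox3, a neural and early embryonic transcription factor, was 17.4, 13.3, 9.67 and 21.9 against 5.48, 7.13 and 9.58, so that AI9 and GS32 were nearly equal. Cdkn1c, an imprinted inhibitor of cyclin-dependent kinases, was 26.1, 33.7, 27.9 and 42.6 against 20.8, 6.65 and 22.8, where GS9 alone was far lower. Snhg9, a small nucleolar RNA host gene, was 13.8 to 28.7 in the new lines and 6.45 to 12.4 in the previous ones.

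Of the 12 genes lower in all new lines with the smallest p, 7 lie on chromosome 8, against 1 of the 12 that were higher. Ckap2, a protein of the mitotic spindle (mm9 chromosome 8, 23278624 to 23296291), was 29.8, 28.6, 27.2 and 23.8 FPKM in AI3, AI7, AI9 and AI10 against 47.2, 43.1 and 39.1 in GS4, GS9 and GS32. The log2 difference was -0.64 (SE 0.13, unadjusted p = 0.000694 by limma), with -0.51 among F and -0.71 among P lines. Mak16, a ribosome assembly factor of the same chromosome, was 98.5 to 126 in the new lines against 219, 213 and 147. Mphosph6, a nuclear exosome cofactor also of chromosome 8, was 71.8 to 95.0 against 145, 196 and 108. These genes were taken only from those with all previous lines above, so the separation itself was fixed by the choice, and GS32 was the lowest previous line in each.

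Magohb, a core protein of the exon junction complex (mm9 chromosome 6, 131234406 to 131243262), was 26.8, 24, 27.0 and 18.3 FPKM against 67.0, 71.6 and 34.3. Its difference was -1.17 (SE 0.26), and GS32 stood closer to the new lines than to GS4 and GS9. Reads of Magohb could be shared with its near-identical copy Magoh. Taf13, a subunit of the general transcription factor TFIID, was 33.3, 41.2, 41.6 and 33 against 56.8, 67.0 and 52.8 (difference -0.65, SE 0.14), with -0.55 among F and -0.56 among P lines. Taf13 was taken only from genes with all new lines below, which fixed its negative signs within F and within P. Plac8 was 10.2 to 14.2 in the new lines and 18.9 to 20.3 in the previous lines, where the 3 lines differed by little. Ei24, a p53-induced gene of the endoplasmic reticulum, was 53.5 to 62.7 against 74.1 to 78.9 (difference -0.41, SE 0.11). The long noncoding RNA Gm13939 was 1.06 to 2.68 against 6.24, 6.76 and 3.29, with the most negative difference of the genes with separate groups, -1.20.

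**Figure D4:**
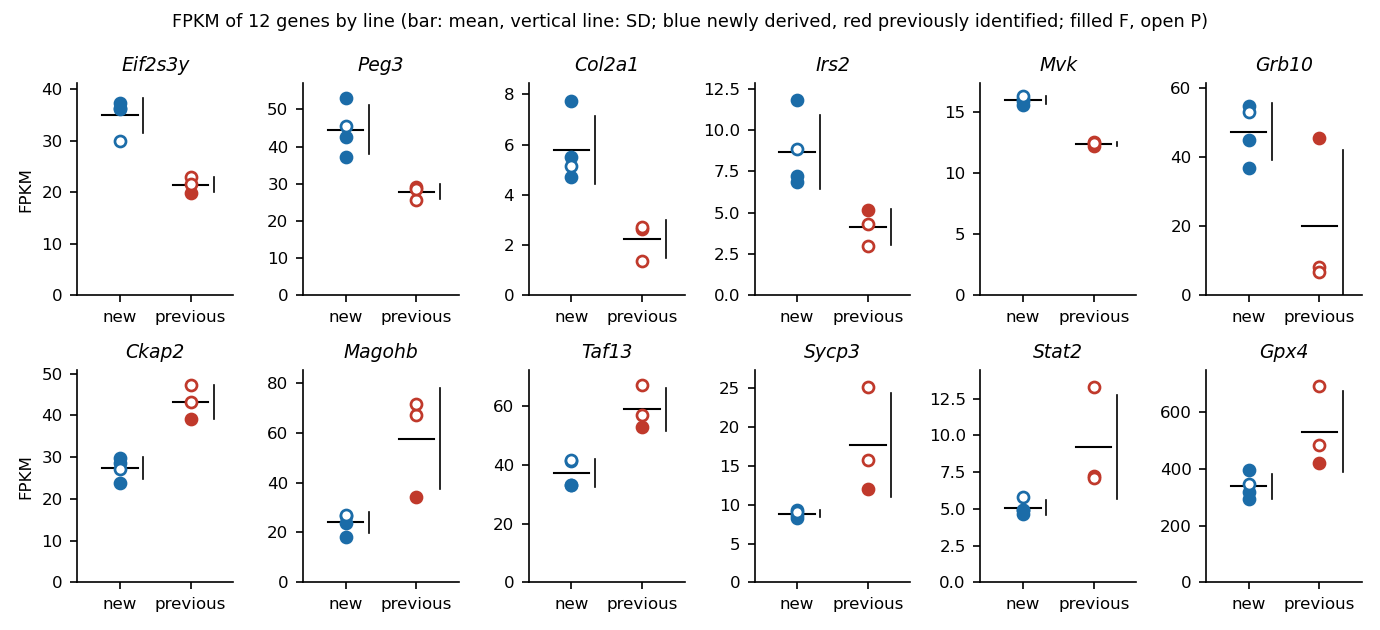
FPKM (y axes, from 0) of 12 genes in the newly derived and previously identified lines (x axes), one point per line, filled for F and open for P, with the mean as a bar and the SD as a vertical line. The groups are separate in every panel but Grb10, in which GS32 at 45.6 lies among the new lines.

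Genes that report on FGF, BMP, Wnt and Nodal signalling were on balance higher in the new lines. Of 30 tested, 6 were higher and 1 lower at an unadjusted p under 0.05, and 5 had all new lines above, beside 2.97%, 4.91% and 3.04% of all genes. Their median difference was 0.23 (all genes -0.03), with 0.22 among F and 0.25 among P lines. The list mean of log2(FPKM + 1) was 4.08, 4.41, 4.37 and 4.68 in AI3, AI7, AI9 and AI10. It was 4.06, 4.16 and 4.14 in GS4, GS9 and GS32, so AI3 lay below GS9 and GS32. Dusp4, a phosphatase that ERK signalling turns on, was 13.7, 20.1, 19.7 and 40 FPKM in AI3, AI7, AI9 and AI10 against 9.46, 12.1 and 13.7 in GS4, GS9 and GS32, and AI3 and GS32 were equal to 3 digits. Dusp6, another ERK-induced phosphatase, was 34.3 to 46.9 against 20.4, 27.7 and 33.1. The BMP targets Id1 (22.7 to 38.0 against 16.1 to 21.1), Id4 (3.04 to 5.82 against 1.98 to 2.66) and Smad6 (2.49 to 3.73 against 1.51 to 1.93) were separate as well. Id3 overlapped, with 60.0 in AI3 and 61.3 in GS32. AI10 was the highest line in each of these genes. Egr1, an immediate early gene of the same list, lay the other way, at 76.5 to 111 in the new lines and 108 to 137 in the previous ones. Without GS4 the number of these genes higher at an unadjusted p under 0.05 was 2, and 8 had all new lines above. Over all 11774 genes these counts were 268 and 823 without GS4, and 350 and 358 with all 7 lines.

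Genes of cholesterol synthesis showed a similar pattern. Of 23 tested, 6 were higher and 0 lower at an unadjusted p under 0.05 by limma, 0 passed the adjusted test, and 4 had all new lines above, beside 2.97%, 4.91%, 0% and 3.04% of all genes. The list mean of log2(FPKM + 1) was 4.45, 4.81, 4.72 and 5.04 in AI3, AI7, AI9 and AI10 and 4.38, 4.87 and 4.43 in GS4, GS9 and GS32, so that GS9 lay above 3 of the new lines. Their median difference was 0.26, with 0.36 among F and 0.12 among P lines. Mvk, mevalonate kinase, was even within each derivation, at 15.5, 15.9, 16.3 and 16 FPKM in AI3, AI7, AI9 and AI10 against 12.5, 12.4 and 12.2 in GS4, GS9 and GS32. The difference was small but wide of the spread in either group (15.9 ± 0.320, SD, n = 4, and 12.4 ± 0.144, n = 3, log2 difference 0.34, SE 0.10). The AN lines spanned 10.9 to 16.6 for Mvk, a range that held both groups, and Mvk was named for having one of the smallest p of its list. Srebf2, the transcription factor that turns on this pathway, was 37.6 to 47.8 against 31.8 to 33.7. Sqle, squalene epoxidase, was 35.5 to 54.1 against 26.9 to 36.3, so the groups overlapped. Other enzymes of the same route lay near 0, with Fdft1 at 0.02 and Idi1 at -0.12 on the log2 scale. Without GS4 the number higher at an unadjusted p under 0.05 was 2 and without GS32 it was 3, beside 268 and 1433 of all 11774 genes. With the trend over length and GC removed the median difference was 0.21.

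The promoters of the enzyme Mvk and of the pathway's own regulator Srebf2 are shown because both had separate groups and a sequence in the RefSeq table, and they were picked after their values were seen. NF-Y, a factor that binds CCAAT boxes, is known to act with SREBP factors at sterol genes. The 250 bases before each start are printed 5′ to 3′ on the plus strand of GRCm38.p6, a later build than the mm9 of the expression data, from chr5:114444019-114444268 and chr15:82147019-82147268. Capitals mark CCAAT and its reverse complement ATTGG, searched on both strands.
Mvk: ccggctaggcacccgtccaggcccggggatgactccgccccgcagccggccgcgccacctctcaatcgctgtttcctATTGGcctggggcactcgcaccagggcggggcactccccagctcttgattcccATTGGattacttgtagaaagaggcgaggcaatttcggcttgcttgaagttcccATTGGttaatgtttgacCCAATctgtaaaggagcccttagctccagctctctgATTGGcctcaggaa
Srebf2: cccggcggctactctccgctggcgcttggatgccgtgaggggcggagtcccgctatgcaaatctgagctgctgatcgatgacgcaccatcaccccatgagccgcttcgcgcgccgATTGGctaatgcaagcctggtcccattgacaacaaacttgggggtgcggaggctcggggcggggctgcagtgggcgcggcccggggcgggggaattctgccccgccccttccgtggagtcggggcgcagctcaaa
Mvk holds 5 matches and Srebf2 holds 1, while 34.5% of all 27025 promoters in the table hold at least 1 and 0.918% hold 4 or more. Of the 15 tested list members with a promoter in the table, 13 hold at least 1. These matches are letters in a window and no measure of binding in the 7 lines.

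Imprinted genes outside the Dlk1-Dio3 region lay in both directions. Of 44 tested, 4 were higher and 3 lower at an unadjusted p under 0.05, beside 2.97% and 4.91% of all genes. The median difference was 0.07, with 0.00 among F and 0.18 among P lines. Without GS4 3 were higher and 1 lower, beside 268 and 538 of all 11774 genes. Peg3, a paternally expressed zinc finger gene (mm9 chromosome 7, 6656603 to 6683132), was 37.2, 42.6, 45.5 and 53 FPKM in AI3, AI7, AI9 and AI10 against 25.6, 28.7 and 29.2 in GS4, GS9 and GS32. It was higher in every new line, by 0.65 (SE 0.14) in all, 0.57 among F and 0.72 among P lines. Since all new lines lay above all previous ones, the positive signs within F and within P follow from that and add no support. Mest, another paternally expressed gene, was 39.4, 74.3, 69.1 and 58.3 against 34.1, 53.7 and 33.2, with AI3 below GS9. Mcts2, a retrogene expressed from the paternal copy, was 15.1 to 19 in the new lines, 39.2 in GS4, 44.3 in GS9 and 19.9 in GS32. The noncoding RNA Kcnq1ot1 was also highest in GS4 and GS9, at 1.12 to 1.39, 2.36, 2.26 and 1.38. Mcts2 lies within H13 and Kcnq1ot1 runs antisense to Kcnq1, and strand-specific counting is not stated for these values. For Mcts2 the AN lines spanned 25.7 to 37.8, above all new lines and GS32 and below GS4 and GS9. For Kcnq1ot1 they spanned 1.19 to 2.73, a range that held GS4, GS9 and GS32.

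The maternally expressed noncoding RNAs of the Dlk1-Dio3 region, whose silencing is known from iPSCs of low potency, did not separate the derivations. Meg3 was 119, 69.8, 42 and 86.5 FPKM in AI3, AI7, AI9 and AI10 against 27.7, 53.3 and 92.1 in GS4, GS9 and GS32. Rian was 124, 101, 46.7 and 117 against 29.4, 86.2 and 113. In both the P lines AI9 and GS4 were the lowest, and the F line GS32 was level with the new F lines. The difference of Meg3 was 0.52 (SE 0.43) and that of Rian 0.45 (SE 0.48), and within F and within P each lay between -0.11 and 0.12. Dlk1 was 1.6 to 4.09 in the new and 1.12 to 2.67 in the previous lines, and Rtl1, under the minimum, was 0.249 to 1.35 and 0.284 to 0.967.

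Core and naive pluripotency genes were on balance lower in the new lines, and GS4 had the highest mean. Of 31 tested, 23 had a negative difference, 3 were lower and 0 higher at an unadjusted p under 0.05 by limma, and 0 had separate groups, beside 4.91% lower and 4.47% below of all genes. The median was -0.36, with -0.05 among F and -0.50 among P lines. Pou5f1 was 799, 806, 748 and 615 FPKM in AI3, AI7, AI9 and AI10 against 1106, 1222 and 743 in GS4, GS9 and GS32. Fbxo15, an Oct4 target, was 57.0, 89.2, 57.8 and 59.4 against 122, 103 and 85.1, and Dppa4 was 40 to 81.3 against 140, 149 and 71.9. GS32 lay within the range of the new lines in all 3. Nanog (47.7 to 116 against 89.9 to 131), Sox2 (169 to 221 against 182 to 284) and Klf4 (39.6 to 57.7 against 55.7 to 58.5) overlapped. Without GS32 14 of the 31 were lower at an unadjusted p under 0.05, without GS4 1 was (median -0.19), and without GS9 4 were (median -0.31). Over all 11774 genes the numbers lower were 1818, 538 and 287 in the same order.

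Primed and early lineage genes had the opposite sign. Of 29 tested, 25 had a positive difference, and 3 were higher and 0 lower at an unadjusted p under 0.05 by limma, beside 2.97% and 4.91% of all genes. The median was 0.55, with 0.30 among F and 0.49 among P lines. It was 0.27 without GS4 and 0.38 with the trend over length and GC removed. The list mean of log2(FPKM + 1) was 3.28, 3.95, 3.97 and 4.49 in AI3, AI7, AI9 and AI10. In GS4, GS9 and GS32 it was 3.12, 3.81 and 3.54, so AI3 lay below GS9 and GS32. The SOX family genes led, with Sox1, a neural factor, at 2.24 to 3 FPKM against 1.15 to 2.22, Sox11 at 8.11 to 12.4 against 5.38 to 7.53, and Sox4 at 27.3 to 37.4 against 14.6 to 28.3. Sox1 and Sox11 were separate by a narrow margin and Sox4 overlapped through GS32. Sp5, a Wnt target of the signalling list, varied widely among the new lines, at 2.05 in AI3, 12.4 in AI7 and AI9 and 32.6 in AI10, against 1.72, 6.20 and 4.79. Fgf5, a marker of the epiblast after implantation, was 11.3 to 26.5 against 6.36, 25.4 and 17.5 and did not separate the derivations. Nes, nestin, was 33.6 to 61.2 against 14.7, 21.2 and 51.5, where GS32 again lay with the new lines.

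The fibroblast and feeder list had the largest gap between the states. Of 42 genes tested, 40 had a positive difference with a median of 0.73, yet 1 was higher at an unadjusted p under 0.05 by limma and 0 had separate groups, beside 2.97% and 3.04% of all genes. The median was 0.40 without GS4 and also 0.40 without GS9. Among F lines the median was -0.52, since GS32 was the highest line, and among P lines it was 1.43. Acta2, smooth muscle actin, was 429, 314, 528 and 564 FPKM in AI3, AI7, AI9 and AI10, 611 in GS32, 116 in GS4 and 137 in GS9, and Thy1 was 25.8 to 47.2, 63.1, 13.8 and 16.1. Without GS32, 38 of the 42 were higher before adjustment and 4 after it, beside 1433 and 26 of all 11774 genes. Extraembryonic endoderm genes (14 tested, median 0.51, -0.12 among F and 0.60 among P, 0.25 without GS4 and 0.31 without GS9) include matrix genes such as Serpinh1, a collagen chaperone, at 90.3 to 136 in the new lines, 114 in GS32, 36.4 in GS4 and 77.4 in GS9. Lrp2, the endocytic receptor megalin, was 7.95 to 13.7 against 3.96, 5.66 and 7.74 and was separate. The fibroblast marker sums moved with both lists, and their part in the other results was not tested.

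Germline genes that DNA methylation normally silences were on balance lower in the new lines. Of 23 tested, 21 had a negative difference, 3 were lower at an unadjusted p under 0.05 by limma, and all 3 had separate groups, beside 4.91% lower and 4.47% below of all genes. Sycp3, a structural protein of meiotic chromosomes (mm9 chromosome 10, 87922314 to 87935981), was 8.64, 9.32, 9.07 and 8.33 FPKM in AI3, AI7, AI9 and AI10 against 15.8, 25.2 and 12.1 in GS4, GS9 and GS32 (difference -0.87, SE 0.21). With the trend over length and GC removed the Sycp3 difference was -0.49. The 4 new lines were within 1 FPKM of each other, and the AN lines spanned 9.2 to 16.1. Taf7l was 0.863 to 1.98 against 5.16, 2.75 and 2.52, and Sycp1 1.31 to 2.41 against 6.04, 2.91 and 2.87. Stra8, needed for entry into meiosis but not a member of the list, was 1.09, 2.86, 3.14 and 0.722 against 8.05, 3.88 and 4.12. In Taf7l, Sycp1 and Stra8 GS4 was the highest line and all previous lines were above all new ones. The median over the list was -0.37, 0.14 among F and -0.75 among P lines, and without GS4 it was -0.04.

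Genes of the 2-cell-like state and of the interferon response had their highest mean in GS4. All 10 tested genes of the first list had a negative difference, with a median of -0.82, and the median was -0.21 without GS4 and -0.56 over the 8 with length and GC once that trend was removed. Zscan4a was 0.0805, 1.64, 1.21 and 0.322 FPKM in AI3, AI7, AI9 and AI10, 8.92 in GS4, 1.14 in GS9 and 0.796 in GS32, though reads could be split among the near-identical Zscan4 copies. Calcoco2, the gene of this list with separate groups, was 4.97, 16.3, 14.7 and 5.91 against 16.8 to 21.0 in the previous lines, and AI7 and GS32 were close. The median of 27 interferon-stimulated genes was -0.47, with -0.25 among F and -0.57 among P lines, and without GS4 it was -0.03. Stat2, a transcription factor of the interferon response, was 4.92, 4.95, 5.84 and 4.63 against 13.3, 7.12 and 7.24 (difference -0.70, SE 0.21), so that it was separate in GS9 and GS32 as well. Bst2, a membrane protein of this response on chromosome 8, was 40.4 to 68.5 in the new lines, 232 in GS4, 79.1 in GS9 and 50 in GS32.

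Genes for metal binding and the removal of peroxides were on balance lower in the new lines. Of 24 tested, 8 were lower and 1 higher by limma before adjustment and 0 after it, and 4 had all new lines below, beside 4.91% lower, 2.97% higher and 4.47% below of all genes. Without GS9 the number lower was 4, beside 287 of all 11774 genes. Gpx4, which reduces lipid peroxides, was 294, 396, 346 and 317 FPKM in AI3, AI7, AI9 and AI10 against 484, 692 and 419 in GS4, GS9 and GS32. Sod1, the cytosolic superoxide dismutase, was 1241, 1599, 1492 and 1216 against 2022, 2795 and 1639. In both GS9 was the highest line and AI7 came close to GS32. The metallothioneins Mt1 (310 to 487 against 439 to 676) and Mt2 (251 to 424 against 388 to 664), both on chromosome 8, overlapped through AI7. Mt4, a metallothionein of the same chromosome that is not on the list, was 0.221 to 1.37 against 2.05 to 3.04. Keap1, which holds the oxidative stress factor Nrf2 in check, was the gene of the list that was higher, at 12 to 12.7 against 7.20 to 10.7. With the trend over length and GC removed the list median went from -0.23 to -0.11. Without that step it was -0.12 among F and -0.53 among P lines.

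Subunits of oxidative phosphorylation and ribosomal proteins had medians of -0.21 (81 tested) and -0.17 (98 tested, by symbols beginning with Rpl or Rps, which take in a pseudogene and kinases). For oxidative phosphorylation 10 genes were lower and 0 higher at an unadjusted p under 0.05 by limma, and 10 had all new lines below, beside 4.91%, 2.97% and 4.47% of all genes. Ndufa13, a complex I subunit on chromosome 8, was 36.8 to 44.2 FPKM against 58.0, 60.8 and 49.3, and Atp5l, of the ATP synthase, was 169, 168, 169 and 139 against 219, 330 and 182. Cox4i1, of cytochrome oxidase and also on chromosome 8, was 447 to 527 against 748, 712 and 512. The medians were 0.07 and 0.12 among F lines and -0.36 and -0.37 among P lines. With the trend over length and GC removed the median for oxidative phosphorylation was -0.06 and that for ribosomal proteins was near 0. Without GS9 the medians were -0.11 and -0.04, and 3 oxidative phosphorylation genes and 0 ribosomal ones were lower at an unadjusted p under 0.05. Of all 11774 genes, 287 were lower without GS9. Rps24, of the small ribosomal subunit, was 756 to 1009 against 1167, 2226 and 1032, with GS9 far above the other lines.

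**Figure D5:**
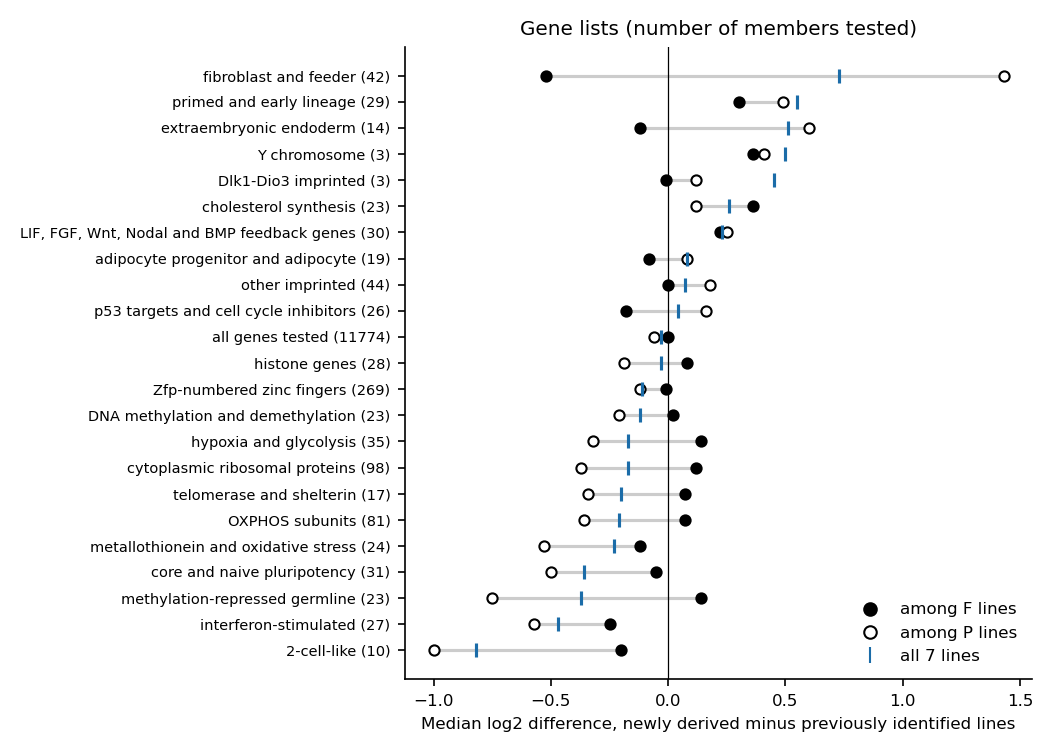
Median log2 difference, newly derived minus previously identified (x axis), of each gene list and of all genes tested (y axis, number tested in brackets), among F lines (filled), among P lines (open) and over all 7 lines (blue tick). The fibroblast and feeder list is at -0.52 among F and 1.43 among P lines, whereas the signalling list is at 0.22 and 0.25.

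Of 269 zinc finger genes with numbered Zfp symbols, 19 were lower and 4 higher at an unadjusted p under 0.05, and 19 had all new lines below and 1 above, beside 4.91%, 2.97%, 4.47% and 3.04% of all genes. Zfp940 was 2.67 to 3.68 FPKM in the new lines against 5.96, 7.03 and 5.06, and Zfp330, on chromosome 8, was 49.6 to 60.1 against 94.7, 84.6 and 60.5. Without GS4 the number lower was 7, beside 538 of all 11774 genes. With all 7 lines the list median was -0.11, with -0.01 among F and -0.12 among P lines. Among 23 genes of DNA methylation, Zfp57, which protects imprints, was 43.8 to 79.3 against 159, 92.8 and 69.9. The median of that list was -0.12, with 0.02 among F and -0.21 among P lines. Hypoxia and glycolysis genes (35 tested) had a median of -0.17, with 0.14 among F and -0.32 among P lines. Bnip3, a mitophagy receptor, was 17.4 to 32.8 in the new lines, 63.1 in GS4, 64.8 in GS9 and 20 in GS32. Genes of telomerase and shelterin (17 tested, median -0.20), histones (28 tested, -0.03), p53 targets (26 tested, 0.04) and adipocytes and their progenitors (19 tested, 0.08) had at most 2 members in either direction at an unadjusted p under 0.05, beside 2.97% higher and 4.91% lower of all genes. In the same order the medians were 0.07, 0.08, -0.18 and -0.08 among F and -0.34, -0.19, 0.16 and 0.08 among P lines. Of the 17 telomerase and shelterin genes, 2 were lower and 0 higher at that threshold, and 14 had a negative difference. Of the reprogramming factors, Myc was 14.7 to 20.5 against 10.7 to 15.7 and overlapped.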

How the data were processed

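RNA of 16 mouse cell lines, with 1 library each, was sequenced as single reads of 50 nt. Per the labels and the study's methods, the authors mapped them to mm9 with TopHat 2.1.0 and calculated FPKM with Cufflinks 2.2.1 (HTSeq is listed without a role, and an mm9 GTF annotation was used, whose source is not given in the sources used here). The deposited FPKM were used unscaled. Symbols beginning with Mir, Snord, Snora, Scarna or Rnu (724) were left out. The 4 new and 3 previous lines were compared on log2(FPKM + 1) with limma 3.58.1 (R 4.3.3, mean-variance trend, Benjamini-Hochberg, threshold 0.05), tested on simulated data. The study's Cuffdiff needs reads and was not run. F or P states are those of the study. Positions, length and GC came from an mm9 annotation, with 97.1% of tested genes having length and GC. Members, lists and tests were chosen with earlier results of these data known. Named genes were, among genes with separate groups, the 12 with the smallest p per direction at a mean FPKM of at least 5 and the 5 with the largest difference per direction, the 5 with the smallest p per direction with state as a term, the 3 with the smallest p in each of 22 lists, Grb10, Dlk1-Dio3, core pluripotency and Y-linked genes. Sod1, Keap1, Srebf2, Id1, Id4, Dusp6, Egr1, Sp5, Kcnq1ot1, Mest, Igf2, Cox4i1, Nes, Fgf5, Bst2, Fdft1, Idi1 and Actg2 were named after their values were seen. Alternatives varied the pseudocount, filter, scaling, covariates, prior and lines. Promoters are from RefSeq (GRCm38.p6). A few items are not reported here.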

Additional observations from a re-analysis of the deposited data

Results flagged for a closer look

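A total of 220 groups of 4 to 9 lines were checked for a line far from the others in its group by Dixon's test, and 12 were found where chance alone would give about 11. Among the new lines, AI9 was low for Eif2s3y at 29.9 FPKM (others 36.2 to 37.3), AI7 was high for Fbxo15 at 89.2 FPKM (57.0 to 59.4) and Sox2 at 221 FPKM (169 to 175), and its mean log2(FPKM + 1) over ribosomal protein genes was 8.93 (8.81 to 8.83). AI10 was low for Atp5l at 139 FPKM (168 to 169), high for Dusp6 at 46.9 FPKM (34.3 to 35.8), and listed at 0.0133 FPKM for the Y-linked gene Zfy2, which was at 0 in the other 3. The median deviation of AI10 was also low on chromosome 2 (-0.035), chromosome 6 (-0.017) and chromosome 10 (-0.029), each by less than 0.04. Among the AN lines, AN7 stood at 0.172 on chromosome 8 (others -0.082 to 0.014) and AN9 at 0.060 on chromosome 14 (-0.021 to 0.017). The groups of 3 previous lines are too small for this check, so the chromosome 8 value of GS4 was not among those checked.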

How the results depend on the processing

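The count of 0 genes at an adjusted p under 0.05 in either direction was the same under a pseudocount of 0.1, a minimum FPKM of 5, no minimum, median-ratio scaling, quantile normalization, a fit of all 16 lines, state or passage as a term, no trend, a robust prior, small RNA genes kept, the trend over length and GC removed and an adjusted p under 0.1. Leaving out each line in turn gave 0 to 26 genes higher and 0 to 11 lower, and only leaving out GS32 gave any. Before adjustment, with p under 0.05, 350 were higher and 578 lower, against 734 and 1172 in the fit of all 16 lines, 689 and 1601 with passage as a term, and 103 and 131 with state as a term. Leaving out each line gave 141 to 1433 higher and 214 to 1818 lower, with the highest counts without GS32 and the lowest without AI10. Without AI9 they were 205 and 299, without AI3 307 and 278, and without GS9 258 and 287. Genes with all new lines above numbered 469 to 1919 and with all below 628 to 2535 when a line was left out, the highest again without GS32. Without chromosome 8 genes these counts were 352 and 477. With a minimum of 5 the chromosome 8 median of GS4 was 0.460. Rian reversed to -0.13 with passage as a term, -0.05 with state as a term and spanned -0.12 to 0.84 when a line was left out, Uty to -0.18 with passage (-0.04 to 0.31), and Fgf5 to -0.51 with passage (-0.25 to 0.67), reversing without GS4, GS32 and GS4 respectively. Without GS32, Magohb, Mak16, Tdgf1, Mcts2, Grb10, Vim, Anxa1, Gm13939 and Igf2 passed an adjusted p under 0.05. The causes were not tested. No paired analysis was possible because the numbers in the titles name lines and pair none of them across derivations. The number of reads is unknown, so the counting error of low values could not be given, and 3 or 4 lines a side limit what could be called.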
